A study of Mus musculus with 36 samples.

Results

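Chemical synapses release transmitter when a filled synaptic vesicle fuses with the plasma membrane of the nerve terminal, and 9 genes of that machinery were followed here across 36 polyA RNA libraries of mouse hippocampus. They were chosen by name for their roles, with earlier results of these data known. Each matched 1 of the 36172 gene entries of the deposited table. Snap25, Stx1a and Vamp2 encode the 3 SNARE proteins whose coiled-coil assembly pulls vesicle and plasma membrane together, with SNAP-25 and syntaxin-1A on the plasma membrane side and VAMP2 (synaptobrevin-2) on the vesicle. Syt1 encodes synaptotagmin-1, the vesicle calcium sensor that triggers fast fusion. Syp (synaptophysin) and Sv2a (synaptic vesicle glycoprotein 2A) encode membrane proteins of the vesicle, Syn1 and Syn2 encode synapsins, which hold vesicles in the reserve pool, and Slc17a7 encodes VGLUT1, the transporter that fills vesicles with glutamate in most excitatory neurons of the hippocampus. All these genes are expressed mainly by neurons, and microglia, the resident macrophages of the brain, are not known for regulated release from synaptic vesicles.

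All mice carried Cx3cr1-NuTRAP, in which a cre recombinase driven by the Cx3cr1 promoter, active in microglia and other mononuclear phagocytes, turns on a tagged ribosomal protein after tamoxifen. TRAP (translating ribosome affinity purification) pulls down these ribosomes with an antibody against GFP, and the input is the cleared homogenate of both hippocampi of an animal before the pulldown. The libraries came from 4 groups of both sexes: input of 10 young mice (6 months, labelled early induction), input of 12 old mice (22 months, early induction), input of 7 old mice (22 months, late induction), and the TRAP-positive fraction of those same 7 old mice. The labels name the induction as early or late without an age, so old and young early-induced mice differ in age and in any time since induction. Replicate numbers below follow accession order within each group.

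The libraries held between 12.9 and 20.45 M estimated counts each, and 16629 to 17168 detected genes. Levels are given as CPM, the usual counts-per-M unit, from library sizes scaled with trimmed means (TMM). A list of 9 neuronal markers summed to 3583 to 3869 CPM in young input, 3542 to 3967 CPM in old early-induced input, 3589 to 3925 CPM in old late-induced input and 2762 to 3493 CPM in TRAP, and a list of 15 microglial markers summed to 537 to 642, 744 to 910, 802 to 1194 and 14696 to 23934 CPM. Thus the pulldown was rich in microglial transcripts and still carried neuronal ones. Choroid plexus markers varied within each input group, from 49.6 to 3058 CPM in young input (median 1967 CPM). In old mice they ran from 47.6 to 4082 CPM with early induction (median 108) and from 49.3 to 3460 CPM with late induction (median 1995). The input groups were thus not balanced for these markers, and their part in the levels of the 9 genes was not tested. Old early-induced replicate 5 stood apart by blood genes (2265 CPM against a group median of 249 CPM). The sequencing index in the labels ran from 1 to 23 for old early-induced, 25 to 38 for old late-induced and 39 to 57 for young libraries, so index order and group cannot be told apart.

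The 9 genes lie at separate loci on 8 chromosomes (mm10 coordinates of the deposited table). Snap25 lies at chr2:136713450-136782428 (+), Stx1a at chr5:135023572-135051099 (+) and Vamp2 at chr11:69088528-69092381 (+). Syt1 spans chr10:108497650-109010975 (-), Syp chrX:7638580-7653256 (+) and Sv2a chr3:96181227-96195180 (+). Syn1 spans chrX:20860511-20920918 (-), Syn2 chr6:115134902-115282626 (+) and Slc17a7 chr7:45163921-45176139 (+). Timp1 lies on the opposite strand within Syn1, Araf overlaps an end of it, and Timp4 lies on the opposite strand within Syn2. Since the use of strand in counting is not given in the sources used here, reads of such partners cannot be told apart with certainty.

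Syn1, Slc17a7 and Syt1 had the levels that moved together most closely across the inputs, as described further on, so the DNA just upstream of their starts is shown. RefSeq promoter windows (GRCm38.p6) were found for 7 of the 9 genes, not for Snap25 and Vamp2. Of the 250 bases before the RefSeq start, the part before any annotated start is printed 5' to 3' on the gene's strand, at chrX:20921005-20921168 (-) for Syn1, chr7:45163671-45163920 (+) for Slc17a7 and chr10:109010983-109011225 (-) for Syt1. Capitals mark the motifs searched, on either strand.
Syn1: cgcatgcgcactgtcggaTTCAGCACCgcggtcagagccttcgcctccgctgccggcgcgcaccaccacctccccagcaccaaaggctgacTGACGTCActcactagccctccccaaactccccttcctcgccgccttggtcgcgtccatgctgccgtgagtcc
Slc17a7: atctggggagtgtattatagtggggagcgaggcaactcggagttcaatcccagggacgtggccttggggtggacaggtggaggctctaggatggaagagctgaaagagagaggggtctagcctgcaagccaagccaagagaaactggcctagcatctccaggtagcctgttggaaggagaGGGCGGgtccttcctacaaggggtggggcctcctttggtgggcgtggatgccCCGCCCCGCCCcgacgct
Syt1: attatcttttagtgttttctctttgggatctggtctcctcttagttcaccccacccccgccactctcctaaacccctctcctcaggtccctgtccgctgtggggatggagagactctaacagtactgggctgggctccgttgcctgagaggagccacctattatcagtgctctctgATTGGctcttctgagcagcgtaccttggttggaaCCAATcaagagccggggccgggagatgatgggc
The capitals in Syn1 are TTCAGCACC, the left part of the RE1 element bound by the repressor REST, 232 bases before the start, and TGACGTCA, the full cAMP response element bound by CREB, 159 bases before it. The same searches over 32851 mouse promoters of this length found the RE1 part in 0.301% and the response element in 1.55%, and among the 9 windows of the 7 genes each was found once, in Syn1. The capitals in Slc17a7 are GGGCGG (the GC box), 70 bases before the start, and near the right end 2 overlapping copies of its reverse complement, and those in Syt1 are CCAAT and its reverse complement. A GC box stood in 6 of the 9 windows and in 32.7% of all promoters, and CCAAT in 2 of the 9 windows and in 33.8% of all. The windows of Slc17a7 and Syt1 both held a GC box, that of Syt1 in the last bases, 11 before the start, which run past the stretch printed. These matches describe letters only.

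Per kilobase of exon, the 9 genes kept much the same order in every group. In young input, Slc17a7 stood at 336 ± 12.6 CPM per kb (SD, n = 10), Syp at 326 ± 13.2, Snap25 at 321 ± 13.6 and Vamp2 at 312 ± 9.47 CPM per kb. These 4 did not differ from their neighbours in the order beyond the ranges of the libraries, in any of the 4 groups. Syn1 followed at 185 ± 7.34 CPM per kb in young input, then Syt1 at 158 ± 7.07, Syn2 at 107 ± 2.63, Sv2a at 104 ± 4.34 and Stx1a at 49.4 ± 4.70 CPM per kb. Stx1a was the lowest and its range lay apart from that of the next gene in all 4 groups, as did the range of Syn1 from the lowest of the top 4. Syn2 and Sv2a overlapped everywhere. In TRAP, the transporter gene Slc17a7 had the highest mean, 309 ± 32 CPM per kb (SD, n = 7), with Snap25 at 276 ± 31.1, Syp at 276 ± 32.2 and Vamp2 at 273 ± 20.3 CPM per kb, all 4 ranges overlapping their neighbours'.

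**Figure D1:**
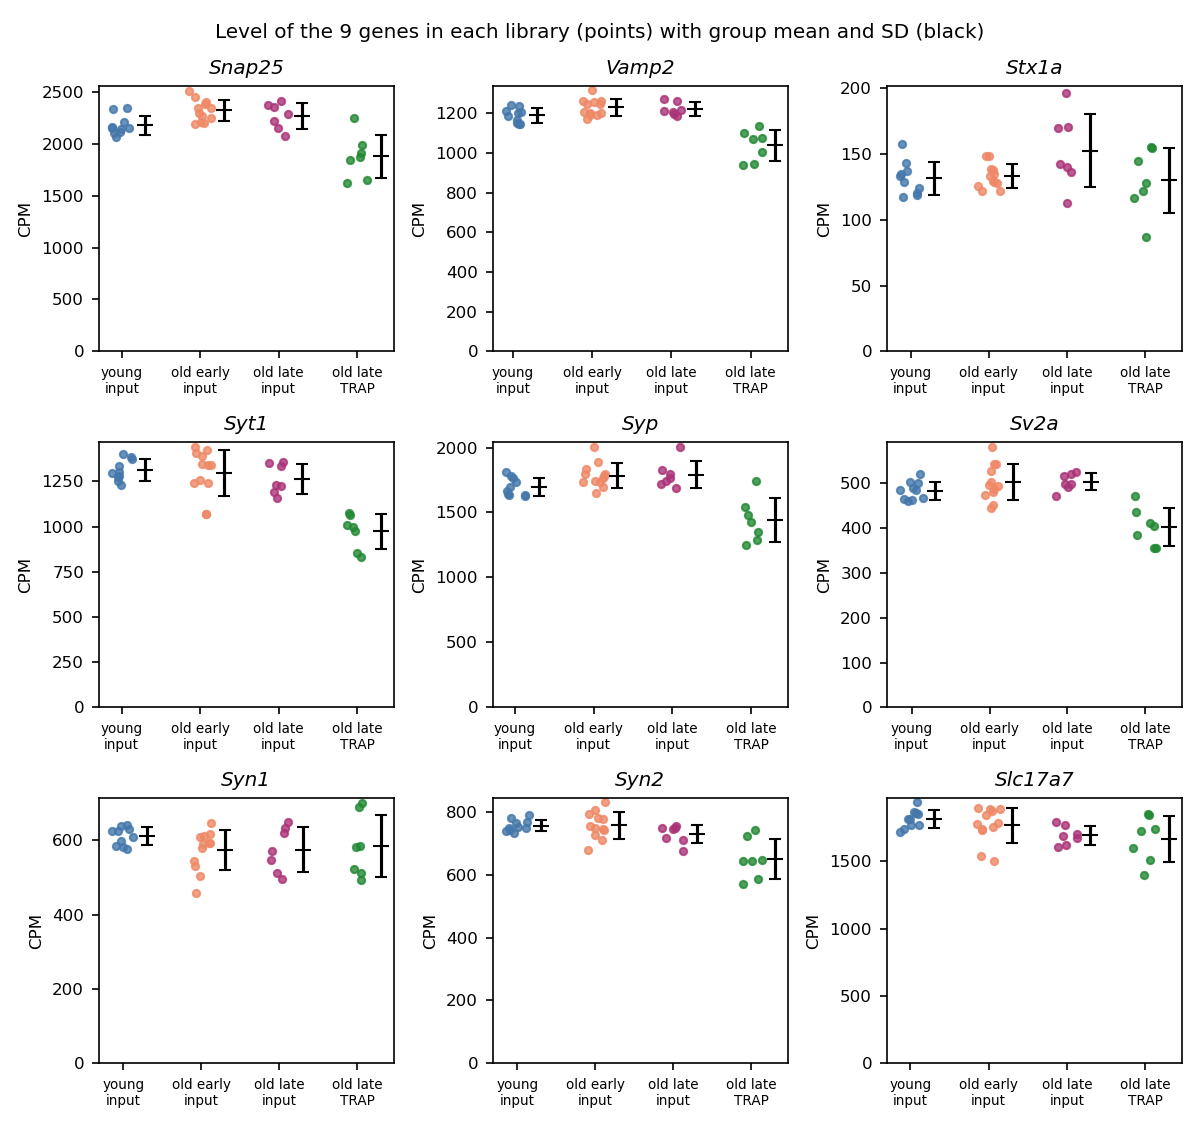
Level of each gene in every library (y axis, CPM after TMM scaling, from 0) by group (x axis), with each coloured point a library and the black bar the group mean ± SD. TRAP points of Syt1 and Vamp2 lie below every old late-induced input point, and Slc17a7 and Syn1 points of the 2 fractions overlap.

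In ribosomes pulled down from Cx3cr1-expressing cells of old hippocampus, 6 of the 9 genes were lower than in input by a modest amount, Syt1 most. With edgeR's quasi-likelihood test (Benjamini-Hochberg adjusted p under 0.05, TMM scaling), Snap25, Vamp2, Syt1, Syp, Sv2a and Syn2 fell. Syn1, Slc17a7 and Stx1a were not called, and none of the 9 rose. This fit, also used for the wider lists below, had no term for the animal, although the fractions were paired by animal. With the animal as a block Stx1a was called lower too, as given below. Of all 14596 genes tested, 59.2% were called, 28.8% lower and 30.4% higher, and the median log2 change was -0.02 over all genes against -0.26 over the 9. The direction depends on the scaling: relative to the summed counts of the neuronal markers, Syn1, Slc17a7 and Syn2 were instead called higher, as given below. The median of all genes moved up on that scale too, and Syn2 lay below it. In bulk libraries such as these, fewer cells of a type and less RNA per cell cannot be told apart.

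Among the SNARE genes, Snap25 ranged from 2078 to 2412 CPM in the 7 inputs (median 2288) and from 1626 to 2252 CPM in TRAP (median 1870). It was lower in TRAP in 7 of 7 animals, and 6 of the 7 TRAP libraries lay below the lowest input. Its log2 change was -0.30 ± 0.06 (SE, edgeR adjusted p = 0.000295). Vamp2 ranged from 1186 to 1274 CPM in input (median 1214) and from 941 to 1136 CPM in TRAP (median 1072), so the fractions did not overlap, as for 9.81% of all genes that were lower without overlap. The log2 change of Vamp2 was -0.26 ± 0.05 (SE, edgeR adjusted p = 0.000138). Stx1a, the plasma membrane syntaxin, ranged from 113 to 196 CPM in input (median 142) and from 86.9 to 156 CPM in TRAP (median 128). These wide ranges overlapped, and its log2 change of -0.25 ± 0.13 was not called without matching of animals (edgeR adjusted p = 0.102). With the animal as a block, the Stx1a change of -0.26 ± 0.06 was called (edgeR adjusted p = 0.00187), which brought the genes called to 7 of 9, and Stx1a was lower in TRAP in 6 of 7 animals.

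The calcium sensor gene Syt1 had the largest fall of the 9. It ranged from 1161 to 1356 CPM in input (median 1231) and from 831 to 1078 CPM in TRAP (median 998), with no overlap. The log2 change of Syt1 was -0.40 ± 0.06 (SE, edgeR adjusted p = 3.91e-05), and the ratio of TRAP to input in the same animal was 0.847, 0.882, 0.639, 0.723, 0.716, 0.811 and 0.784 for replicates 1 to 7. Every animal was thus below 1.

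Both genes of vesicle membrane proteins fell by similar amounts. Syp went from 1691 to 2005 CPM in input (median 1767) to 1252 to 1742 CPM in TRAP (median 1424), a log2 change of -0.34 ± 0.06 (SE, edgeR adjusted p = 0.000129). Sv2a went from 472 to 526 CPM in input (median 499) to 356 to 472 CPM in TRAP (median 406), a log2 change of -0.34 ± 0.06 (SE, edgeR adjusted p = 0.000101). In each case 6 of 7 TRAP libraries lay below the lowest input, and the ratio was below 1 in 7 of 7 animals.

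Of the synapsin genes, Syn2 was called and Syn1 was not. Syn2 ranged from 675 to 756 CPM in input (median 744) and from 571 to 741 CPM in TRAP (median 644), with 5 of 7 TRAP libraries below the lowest input and a log2 change of -0.19 ± 0.05 (SE, edgeR adjusted p = 0.00239). Syn1 ranged from 496 to 649 CPM in input (median 570) and from 493 to 702 CPM in TRAP (median 583). Its ranges overlapped almost fully, its log2 change was 0.01 ± 0.08 (SE, edgeR adjusted p = 0.961), and its ratio was below 1 in 3 of 7 animals.

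The glutamate transporter gene Slc17a7 ranged from 1602 to 1789 CPM in input (median 1688) and from 1394 to 1851 CPM in TRAP (median 1726). TRAP libraries lay on both sides of the inputs, 3 below the lowest and 2 above the highest, and the log2 change was -0.04 ± 0.06 (SE, edgeR adjusted p = 0.543). The ratio of TRAP to input was 1.028, 1.066, 0.851, 0.955, 0.870, 1.083 and 1.035 for replicates 1 to 7. Animals 3, 4 and 5 were below 1 and the other 4 above.

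**Figure D2:**
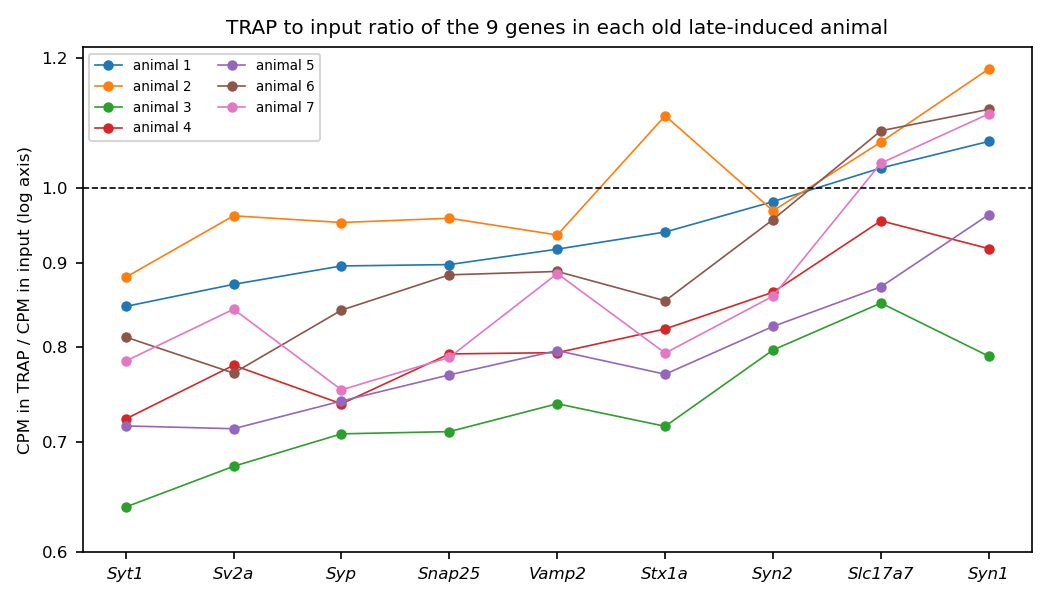
Ratio of TRAP to input CPM in the same animal (y axis, log scale) for each of the 9 genes (x axis, ordered by mean ratio), with a coloured line for each of 7 old late-induced mice and a dashed line at 1. Slc17a7 and Syn1 lie around 1, from 0.790 to 1.181, and the 7 Syt1 points lie between 0.639 and 0.882.

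The order of the genes repeated from animal to animal. The ratio of Slc17a7 was above those of Snap25, Sv2a, Syn2, Syp, Syt1 and Vamp2 in 7 of 7 animals, and above that of Stx1a in 6. The ratio of Syn1 was above those of Snap25, Stx1a, Sv2a, Syp, Syt1 and Vamp2 in 7 of 7 animals, above that of Syn2 in 6 and above that of Slc17a7 in 5. This order does not depend on the scaling, since both libraries of an animal enter every ratio alike. The quotient of Snap25 to Slc17a7 CPM within a library had a median of 1.326 in old late-induced input (1.221 to 1.452) and 1.146 in TRAP (0.998 to 1.305), and that of Syt1 to Slc17a7 had medians of 0.755 (0.707 to 0.809) and 0.583 (0.541 to 0.625), without overlap.

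Animals also differed in level across the genes. The TRAP libraries of replicates 3 and 5 held the lowest value of 4 and 5 of the 9 genes, with ratios of 0.711 and 0.769 for Snap25, 0.708 and 0.742 for Syp, and 0.677 and 0.714 for Sv2a. They also had the highest summed microglial markers, 23934 and 23415 CPM, against 14696 to 17862 CPM in the other 5. TRAP replicate 2 held the highest value of 5 genes, the highest neuronal sum (3493 CPM) and the lowest microglial sum. The part of this gradient in the ratios was not tested.

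Beside the 9 genes, 7 of 9 neuronal markers fell in TRAP (median log2 change -0.28), 15 of 15 microglial markers rose (median 4.28), 10 of 10 oligodendrocyte markers fell (median -1.33) and 9 of 10 astrocyte markers fell (median -0.55). Endothelial markers also rose, 8 of 8 (median 1.15), their sum going from 76.9 to 117 CPM in input to 180 to 295 CPM in TRAP, while 4 of 4 blood genes and 4 of 5 choroid plexus markers fell. The median of the 9 release genes thus lay close to that of the neuronal markers and far from those of microglia and oligodendrocytes. Scaling the 14 libraries to the summed counts of the neuronal list, an alternative chosen after the data were seen, moved the median of all genes to 0.27 and the calls to 7724 higher and 1177 lower. On that scale Syn1 (0.29, edgeR adjusted p = 0.00245), Slc17a7 (0.24, adjusted p = 0.000302) and Syn2 (0.10, adjusted p = 0.029) were higher and Syt1 lower (-0.11, adjusted p = 0.0266), while Snap25, Vamp2, Stx1a, Syp and Sv2a were not called, with log2 changes from -0.06 to 0.03. Syn1 and Slc17a7 lay near the all-gene median of that scale, and Syn2, Syt1 and the 5 uncalled genes lay below it. Upper-quartile scaling moved the all-gene median to -0.17 with 3280 genes higher and 6372 lower, and scaling by library size alone moved it to -0.13 with 3564 higher and 5748 lower, against 4442 higher and 4198 lower with TMM. Under upper-quartile scaling Slc17a7 (-0.19, adjusted p = 0.018) and Stx1a (-0.39, adjusted p = 0.0134) were also called lower, and Syn1 was at -0.14.

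Wider lists of release genes, drawn up by textbook role with the 9 genes among them, were set beside the TRAP result. They too were chosen with earlier results of these data known. Of 13 genes of SNARE-driven fusion, 9 fell and 1 rose (median log2 change -0.25). The vesicle SNARE Vamp1 fell by 0.44 and the complexin Cplx1, a clamp on the assembled SNAREs, by 0.37 on the log2 scale, and the one that rose was Stxbp5 (tomosyn, 0.22, edgeR adjusted p = 0.000437), a protein that competes for SNARE binding. Of 12 synaptotagmin and Doc2 genes, 9 fell and 3 were not called (median -0.36). The smallest adjusted p belonged to Syt11 (-0.51, adjusted p = 3.68e-07) and Syt4 (-0.50, adjusted p = 1.60e-06), and the largest falls to Syt9 (-0.80, adjusted p = 0.000518) and Syt2 (-0.76, adjusted p = 0.00404). Of 16 vesicle protein genes, 10 fell and 2 rose (median -0.23). The Sv2a relative Sv2b fell by 0.59 (adjusted p = 3.16e-07) and the small GTPase gene Rab3a by 0.27 (adjusted p = 0.000122), whereas Rph3a, a Rab3 effector, rose by 0.26 (adjusted p = 0.0297) and Sv2c by 0.48 (adjusted p = 0.0494). These shares lie above the 28.8% of all genes called lower, and the same neuronal markers moved with them.

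Of 5 vesicular transporter genes tested, 2 fell in TRAP. Slc32a1, the vesicular GABA transporter, fell from 117 ± 11.9 to 90.5 ± 18.8 CPM (SD, n = 7; log2 change -0.41, edgeR adjusted p = 0.00272). Slc17a8 (VGLUT3) fell from 5.00 to 2.49 CPM (-1.03, adjusted p = 3.71e-05), and Slc17a6 (VGLUT2) was at 29.2 CPM in input and 25.7 CPM in TRAP without a call (adjusted p = 0.284). Of 16 entries of active zone genes, which dock vesicles at release sites, 6 were lower and 3 higher, beside 28.8% and 30.4% of all genes, and the difference from these shares was not tested here or for the transporters. Erc1 (0.53) and Erc2 (0.48) were among those higher, and Unc13c (-1.17) and Rims2 (-0.34) among those lower.

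SNARE genes of general membrane traffic, which serve endosomes, lysosomes and secretion in many cells, moved the other way. Of 15 tested, 9 rose and 3 fell in TRAP (median log2 change 0.37), against 30.4% of all genes higher. Vamp8, a SNARE of endosomes and lysosomes, went from 18.5 ± 6.21 to 69.2 ± 13.7 CPM (SD, n = 7; log2 change 1.90, edgeR adjusted p = 2.68e-07). Snap23, the widely expressed relative of Snap25, went from 14.1 ± 1.91 to 34.6 ± 8.08 CPM (1.27, adjusted p = 5.10e-07), and Vamp3, the relative of Vamp2, from 33.6 ± 2.25 to 74.3 ± 15.7 CPM (1.12, adjusted p = 6.13e-08). Stx2 rose by 1.23 (adjusted p = 1.26e-09) and Stx7 by 0.61 (adjusted p = 1.91e-07), while Stx3 fell by 0.43 (adjusted p = 1.78e-05). So the neuronal members Snap25 and Vamp2 fell in the same pulldown in which their general relatives Snap23 and Vamp3 rose.

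**Figure D3:**
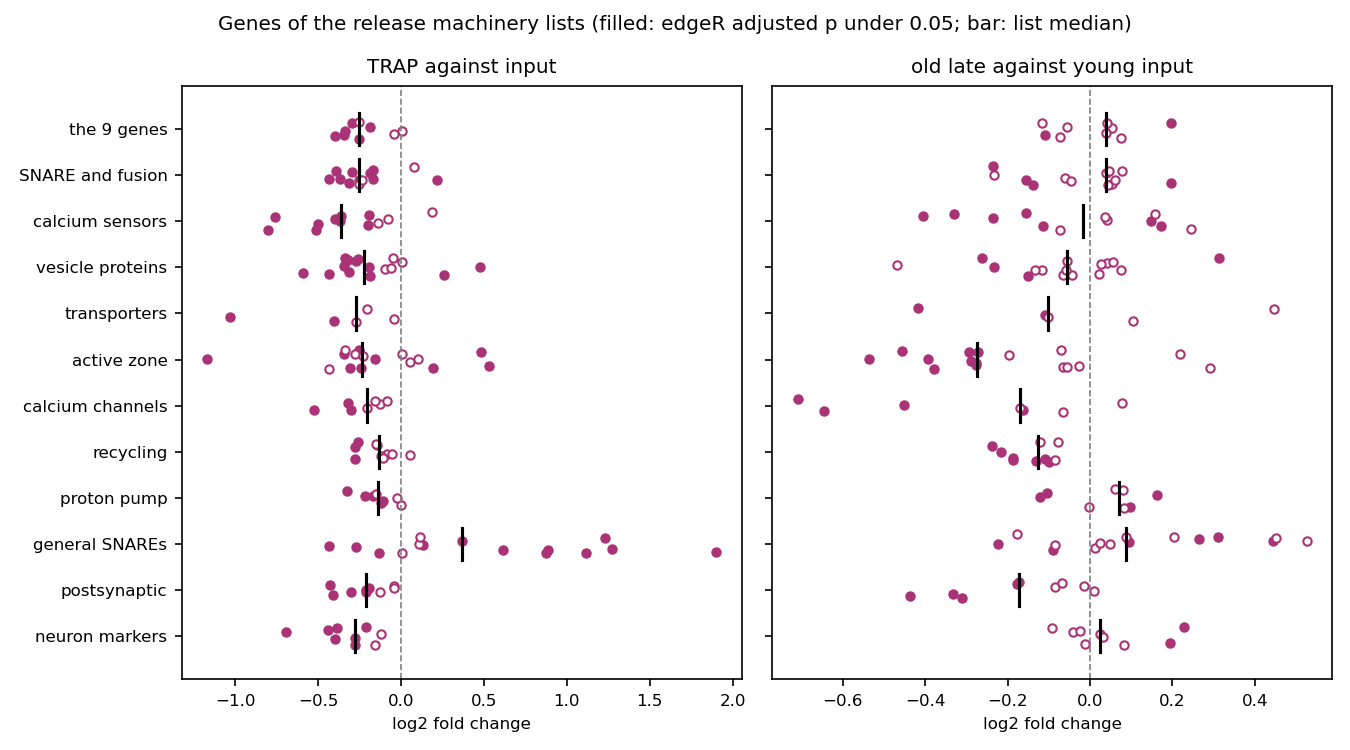
Log2 fold change of each tested gene (points) (x axes) by list (y axis) in TRAP against input (left) and old late-induced against young input (right), with filled points for an edgeR adjusted p under 0.05 and a bar at the list median. With TMM scaling, most release lists lie below 0 on the left and the general SNAREs mostly above, and on the right the 9 genes lie around 0 and the active zone list mostly below.

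Few of the 9 genes were called in old against young input. In old early-induced against young input, 1 of the 9 was called, Snap25, which was higher by 6.57%, while 25.6% of all 14948 genes were called, 13% higher and 12.6% lower. Snap25 ranged from 2069 to 2344 CPM in young (median 2150) and from 2193 to 2512 CPM in old early-induced input (median 2320). The ranges overlapped, with 4 of 12 old libraries above the highest young one, and the log2 change was 0.09 ± 0.03 (SE, edgeR adjusted p = 0.0207). The call was lost without young replicate 8 (adjusted p = 0.0801), old early-induced replicate 5 (adjusted p = 0.0504) or replicate 11 (adjusted p = 0.0513), with no filter on low counts (adjusted p = 0.0634) and in females alone (0.10, adjusted p = 0.138).

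The other 8 genes of this comparison had log2 changes from -0.10 to 0.07. Syn1 ranged from 576 to 641 CPM in young (median 616) and from 458 to 646 CPM in old early-induced input (median 592), a log2 change of -0.10 ± 0.05 (SE, edgeR adjusted p = 0.0936). The ranges overlapped, with 4 of 12 old libraries below the lowest young one and 1 above the highest. Vamp2 had a change of 0.05 ± 0.02 (adjusted p = 0.0999) and Syp of 0.07 ± 0.03 (adjusted p = 0.086). Both passed the threshold with upper-quartile scaling, with adjusted p of 0.0344 and 0.0369. Sv2a (0.05 ± 0.03), Stx1a (0.01 ± 0.06), Syn2 (0.00 ± 0.03), Syt1 (-0.02 ± 0.04) and Slc17a7 (-0.04 ± 0.04) had adjusted p from 0.317 to 0.955.

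In old late-induced against young input, 2 of the 9 were called, Stx1a higher and Slc17a7 lower, while 34.5% of all genes were called, 17% higher and 17.5% lower. Slc17a7 ranged from 1716 to 1941 CPM in young (median 1815) and from 1602 to 1789 CPM in old late-induced input (median 1688), with 5 of 7 old libraries below the lowest young one. It fell by 0.11 on the log2 scale (SE 0.04, edgeR adjusted p = 0.0376). Stx1a ranged from 117 to 158 CPM in young (median 131) and from 113 to 196 CPM in old late-induced input (median 142). Only 3 of 7 old libraries exceeded the highest young one, 1 lay below the lowest, and the log2 change was 0.20 ± 0.08 (SE, edgeR adjusted p = 0.042).

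Both calls depended on single libraries. The Slc17a7 call was lost without old late-induced replicate 2, 5 or 6 or young replicate 3, 4 or 10 (adjusted p from 0.0501 to 0.0878), with upper-quartile scaling (-0.09, adjusted p = 0.0628), with no filter (adjusted p = 0.0668) and in females alone (-0.06, adjusted p = 0.241). For Stx1a the call ended without old late-induced replicate 7 (0.12, adjusted p = 0.184), 3 (0.16, adjusted p = 0.11) or 6 (0.17, adjusted p = 0.0886), without young replicate 1, 2, 5, 6, 7 or 8 or old early-induced replicate 3, 4, 6, 8, 11 or 12 (adjusted p from 0.0512 to 0.0983), and with no filter, voom, females alone or the 2 groups alone (adjusted p from 0.053 to 0.101). The 7 other genes had log2 changes from -0.12 (Syn1, SE 0.05, adjusted p = 0.0929) to 0.07 (Syp, SE 0.04, adjusted p = 0.112). Syn1 passed the threshold without old late-induced replicate 3 (adjusted p = 0.0333) or 7 (adjusted p = 0.0373), and Syp with upper-quartile scaling (adjusted p = 0.0416).

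Both age comparisons used the same 10 young libraries, so they are not independent. Old late-induced and young mice differ in age and in induction label at once, and the 2 cannot be told apart there. Side by side, old early-induced and old late-induced mice gave log2 changes against young of 0.09 and 0.05 for Snap25, 0.01 and 0.20 for Stx1a, -0.04 and -0.11 for Slc17a7, and -0.10 and -0.12 for Syn1. Microglial markers rose in both (14 and 15 of 15, medians 0.47 and 0.64), as did oligodendrocyte markers (8 and 9 of 10, medians 0.34 and 0.49). Of astrocyte markers 5 of 10 rose in each (medians 0.15 and 0.21), of endothelial markers 2 of 8 in each (medians 0.27 and 0.33), and of blood genes 2 and 4 of 4 (medians 0.93 and 1.47). Of the neuronal markers, 2 of 9 were higher and 7 not called in each comparison (medians 0.03 and 0.02). The part of these other cell types in the values of the 9 genes was not tested.

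Old late-induced and old early-induced input were compared directly, which bears on induction age at one age of the mice. None of the 9 genes was called by edgeR, DESeq2 or limma voom, and of all genes 0.0334% were called by edgeR. The mean of Stx1a was 153 ± 27.8 CPM (SD, n = 7) in old late-induced and 133 ± 9.07 CPM (SD, n = 12) in old early-induced input. At an unadjusted p under 0.05 it was the 1 gene of the 9, with a log2 change of 0.18 ± 0.07 (SE, edgeR p = 0.0158, adjusted p = 0.312). The 8 others had log2 changes from -0.07 to 0.00 with adjusted p from 0.486 to 0.99, and standard errors of at most 0.05. A missed threshold does not show that the groups were alike.

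**Figure D4:**
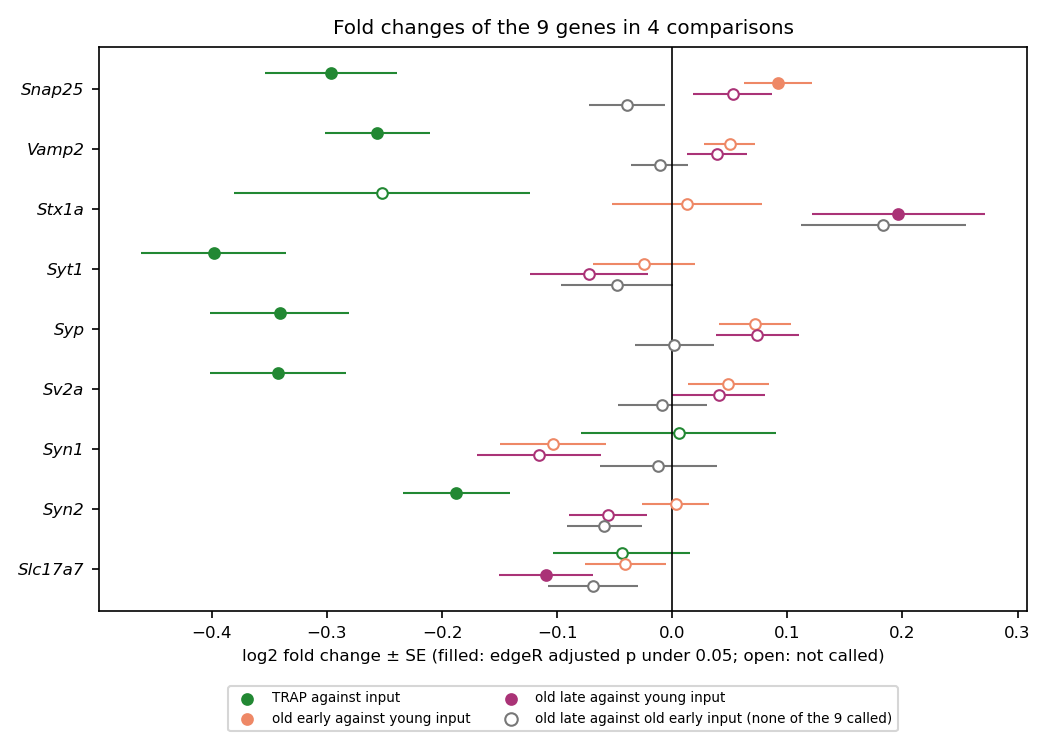
Log2 fold change (x axis) with its standard error for each of the 9 genes (y axis) in the 4 comparisons, filled where the edgeR adjusted p was under 0.05. TRAP points lie mostly between -0.40 and -0.19 with TMM scaling, with Syn1 and Slc17a7 near 0, and the input comparisons lie between -0.12 and 0.20.

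The spread between mice was larger in both old input groups than in young input for Syn1, Syt1, Snap25, Syn2, Syp and Slc17a7. The coefficient of variation of Syn1 was 3.97% in young, 9.37% in the old early-induced group, 10.5% in old late-induced input and 14.4% in TRAP. For Syt1 it was 4.49% in young, 9.69% in the old early-induced group and 6.48% in old late-induced input. Stx1a did not follow this in both old groups, with 9.53% in young mice, 6.81% in old mice after early induction and 18.2% in those after late induction. Vamp2 was the steadiest of the 9 in old late-induced input, at 2.73%. Differences in spread were not tested.

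A few libraries set much of that spread. Old early-induced replicate 5, a male with the highest blood and choroid plexus sums of its group, had the lowest Syn1 (458 CPM) and Sv2a (446 CPM) and at the same time the highest Syp (2001 CPM) and Vamp2 (1319 CPM). Old early-induced replicate 2, also a male, had the highest sum of thalamus markers in its group (395 CPM against a median of 161 CPM). It had the lowest Syt1 (1068 CPM), Slc17a7 (1499 CPM) and Syn2 (678 CPM). Thus the 9 genes did not move as a block in these mice. By contrast young replicate 9 held the highest value of 6 of the 9 genes and old early-induced replicate 11 of 5. Choroid plexus markers stood at 63.4 and 66.3 CPM in these 2 libraries, near the bottom of their groups, and the part of dissection in the levels was not tested.

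Quotients between members show the same without any scaling between libraries. Snap25 to Slc17a7 was 1.157 to 1.262 in young input (median 1.196), 1.217 to 1.568 in old early-induced (median 1.278) and 1.221 to 1.452 in old late-induced input (median 1.326). Syn1 to Syp was 0.324 to 0.394 in young (median 0.361), 0.229 to 0.363 in old early-induced (median 0.332) and 0.271 to 0.367 in old late-induced input (median 0.318). Every old mouse lay above the young median of Snap25 to Slc17a7, and the ranges of the groups overlapped for both quotients. These 2 quotients are examples, and not every quotient moved. Medians in young, old early-induced and old late-induced input were 1.293, 1.297 and 1.285 for Snap25 to Syp. For Snap25 to Vamp2 they were 1.829, 1.878 and 1.847.

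**Figure D5:**
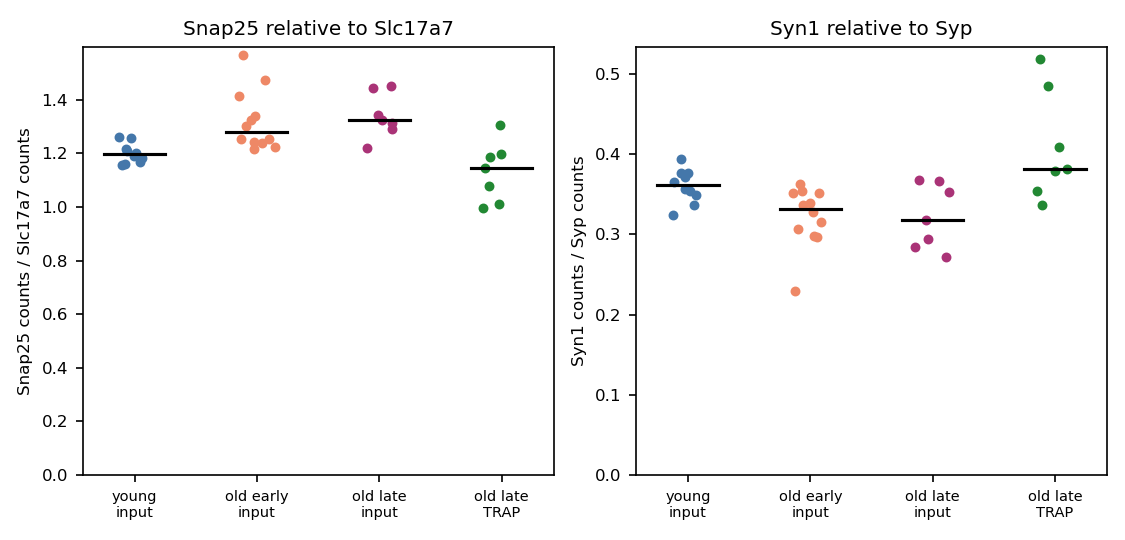
Quotient of Snap25 to Slc17a7 counts (left) and of Syn1 to Syp counts (right) within each library (y axes) by group (x axis), with each point a library and the bar the group median. Young points are the tightest, and among the inputs the old early-induced group holds the most extreme values, up to 1.568 on the left and down to 0.229 on the right.

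Across the 29 inputs the 9 genes fell into sets that moved together. Pearson correlations of log2 CPM were 0.85 between Syt1 and Slc17a7, 0.82 between Syt1 and Syn1 and 0.80 between Syn1 and Slc17a7. Another set was Snap25, Syp and Vamp2, with 0.73 to 0.74 for each pair. The 9 pairs between these sets ran from -0.37 for Syn1 with Syp, the lowest of the 36 pairs, to 0.33 for Snap25 with Syt1, close to the median of all pairs. Of the 36 pairs, 28 were positive with a median of 0.35, and after removal of group means 32 were positive with a median of 0.42. These values describe libraries that share depth, dissection and group, and no test was made.

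The gene most like the mean of the 9 across the 29 inputs, of 13053 genes with a log2 CPM over 1, was Tppp (r = 0.886), and others near the top were Mapk10 (0.867), Lancl2 (0.824) and Zfp365 (0.821). For single members, the most alike were Serpini1 for Snap25 (0.807), Mbnl2 for Syt1 (0.94), Kif1a for Syn1 (0.939) and Dynll2 for Vamp2 (0.782). For other members they were Cacng3 for Stx1a (0.915), Calm2 for Syp (0.909), Tbc1d24 for Slc17a7 (0.919) and Rap1gds1 for Sv2a (0.853). Kif1a encodes a kinesin that carries synaptic vesicle precursors along axons.

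Other lists of the release apparatus were read in the same age comparisons, without a test of their difference from the 9 genes. These lists did not all move one way. Of 16 vesicle protein genes, 1 rose and 2 fell in old early-induced mice, and 1 rose and 3 fell in old late-induced mice. Of 8 genes of the vesicle proton pump, 3 rose and 0 fell, then 2 rose and 2 fell. Of 5 transporter genes tested, 0 rose and 1 fell, then 0 rose and 2 fell. Of all genes, 13% rose and 12.6% fell in the first comparison, and 17% rose and 17.5% fell in the second. Falls in old against young input were not particular to presynaptic genes. Of 9 postsynaptic genes tested, 2 fell in old early-induced (median log2 change -0.07) and 5 in old late-induced against young input (median -0.17), and 0 rose in each. Of 16 active zone entries, 8 fell in old early-induced against young input (median log2 change -0.17, with 12.6% of all genes lower), and 9 fell in old late-induced against young input (median -0.27, with 17.5% of all genes lower), and the rest were not called by edgeR. Bsn (bassoon, a giant scaffold of the active zone) went from 526 ± 40.3 CPM in young (SD, n = 10) to 433 ± 63.8 CPM (SD, n = 12; log2 change -0.30, edgeR adjusted p = 0.00322) and 416 ± 66.0 CPM (SD, n = 7; -0.38, adjusted p = 0.00116). Unc13a, which primes vesicles for fusion, fell by 0.28 (adjusted p = 0.0036) and 0.39 (adjusted p = 0.000555), and Rimbp2, which ties calcium channels to the release site, by 0.37 (adjusted p = 0.00125) and 0.54 (adjusted p = 0.000103). Erc2 fell by 0.17 (adjusted p = 0.00267) and 0.27 (adjusted p = 7.40e-05).

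Genes of presynaptic calcium channels changed likewise, with 3 of 7 lower than young in old early-induced mice, beside 12.6% of all genes. In the late-induced ones 4 of 7 were lower, beside 17.5% of all genes. The rest were not called by edgeR in either comparison. Cacna1e, the R-type channel subunit, went from 219 ± 22.5 CPM in young (SD, n = 10) to 159 ± 32.1 CPM (SD, n = 12; log2 change -0.48, edgeR adjusted p = 0.000541) and 138 ± 23.8 CPM (SD, n = 7; -0.71, adjusted p = 2.90e-05). Cacna1a, the P/Q-type subunit, fell by 0.37 and 0.45, and Cacna1b, the N-type subunit, by 0.36 and 0.64. Of 10 genes of vesicle recycling, 3 fell in the old early-induced group and 7 in the old late-induced one, beside the same shares of all genes. Itsn1 (intersectin, an endocytic scaffold) fell by 0.22 (edgeR adjusted p = 0.00012) and 0.24 (adjusted p = 0.000152). In the direct comparison of both old groups Cacna1e stood at -0.23 (edgeR adjusted p = 0.415), Bsn at -0.08 (adjusted p = 0.727) and Itsn1 at -0.02 (adjusted p = 0.874).

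Of the 12 synaptotagmin and Doc2 genes, 2 rose and 2 fell in old early-induced against young input, beside 13% and 12.6% of all genes. In old late-induced against young input, 5 fell and 2 rose. Of all genes 17.5% fell and 17% rose in that comparison, so the share that rose was that of all genes. Examples were Doc2b at -0.41 (edgeR adjusted p = 5.65e-06) and Syt7, the slow calcium sensor, at -0.24 (adjusted p = 0.000636), while Syt11 stood at 0.15 (adjusted p = 0.00153) and Syt5 at 0.17 (adjusted p = 0.00334). Of the 13 fusion genes, 2 rose and 2 fell with early induction in old against young mice, beside 13% and 12.6% of all genes. With late induction 1 rose and 3 fell, beside 17% and 17.5% of all genes. Most were thus not called, and the difference from these shares was not tested. Outside the 9, Vamp1 was higher in the first (0.14, adjusted p = 0.036), and Stxbp5 (-0.24) and Nsf (-0.16), the ATPase that takes SNARE complexes apart, were lower in the second. Of 15 general SNARE genes, 7 rose in old early-induced against young input (13% of all genes higher), Vamp3 by 0.25. In old late-induced mice 4 rose and 2 fell, beside 17% and 17.5% of all genes. Microglial markers, and in TRAP the general SNAREs too, were higher, as given above. Their part in the rise of these genes in old input was not tested.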

How the data were processed

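PolyA RNA of hippocampal input (29 libraries) and TRAP fractions (7 libraries) was sequenced. Estimated counts of each gene in the 36 libraries were deposited by the authors as 1 table whose columns the file headers mark as raw, and 77.4% of its nonzero values were not whole. The build mm10 and DESeq2 are named in the submitters' processing notes. The aligner, the counting tool and the use of strand are not given in the sources used here. The members and lists were chosen with earlier results of these data known.

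Expected counts were rounded, filtered (filterByExpr, minimum count 10) and tested with edgeR 4.0.16 in R 4.3.3 (TMM, glmQLFit, glmQLFTest, Benjamini-Hochberg, sex as covariate). Age and induction contrasts came from 1 fit of 29 inputs, and TRAP against input from 14 libraries of 7 animals, whose numbers in the labels pair the 2 fractions. In these 7 pairs the deviations from group means correlated across genes (0.308 to 0.47, against a median of -0.0858 between animals). The tests were also run on simulated libraries, without pairing by animal and without the old late-induced against young comparison. Few genes were changed there, each by more than any of the 9 genes in the main fits. The simulation thus does not check changes of the size seen in the 9 genes. DESeq2 1.42.0, limma 3.58.1 (voom), other scalings and filters and left-out libraries were alternatives. Where a library was left out, the fit was made on the others. CPM used TMM library sizes over all 36 libraries. Lengths are merged exons of GENCODE M21 (mm10), and 99.98% of 29548 shared symbols lay on the same chromosome. Of 197 listed genes 195 were matched, and Rims1 has 2 entries. Beyond the 9 genes, up to 5 genes per list and comparison with the smallest adjusted p could be named, and further listed genes named (such as Vamp1, Stxbp5, Rph3a, Sv2c and Stx3) were chosen after their values were seen. The labels give 1 animal per input, and no 2 libraries of the same group agreed within sampling noise (lowest chi-square per degree of freedom 3.59). Results of 2 genes among those most like the members are not reported here.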

Additional observations from a re-analysis of the deposited data

How the results depend on the processing

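The counts of calls and the fold changes of the 9 genes were recomputed under 11 alternatives in each comparison (12 in all) and with each library left out. The wider lists, quotients, levels and correlations were not recomputed. TRAP calls for Snap25, Syt1, Syn2, Vamp2, Syp and Sv2a held without any single library. The replicate block by animal changed the call of Stx1a (-0.26, adjusted p = 0.00187) and no other call of the 9 genes, and turned Syn1 to -0.00218. Syn1, uncalled, was also at -0.0975 by library size, -0.137 by upper quartile, -0.0091 by RLE, -0.00909 by DESeq2, -0.00124 by voom and -0.0467 in females, and -0.0395 to 0.0417 with a library left out. Scaling to the neuronal list, chosen after seeing the data, turned Syn2 (0.0996), Vamp2 (0.0302), Stx1a (0.0285) and Slc17a7 (0.239) upward in TRAP.

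In old early-induced against young input the number of the 9 genes called was 3 by upper quartile, 0 with no filter, 0 in females and 0 to 1 with a library left out, and all calls numbered 1198 in females. Syn2 was at -0.0018 with no filter, -0.00177 at a minimum count of 50, -0.00535 with 2 groups and -0.0111 on the neuronal scale, and in females Syt1 was at 0.0565 and Slc17a7 at 0.0176. With a library left out Syn2 ranged from -0.0165 to 0.0123 and Stx1a from -0.00948 to 0.0371. In old late-induced against young input the number called was 0 with no filter, 1 by voom, 0 in females, 1 with 2 groups and 0 to 2 with a library left out, and all calls numbered 2787 in females.

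In old late-induced against old early-induced input all calls, 5 with edgeR, numbered 58 by DESeq2, 182 in females, 0 with 2 groups, 3 on the neuronal scale and 0 to 164 with a library left out (164 without old early-induced replicate 5), with none of the 9 genes among them. Values near 0 changed sign: Sv2a 0.000974 at a minimum count of 50 and 0.00467 on the neuronal scale, Syn1 5.21e-05 without the sex covariate and 0.000995 on the neuronal scale, Vamp2 0.0122 in females and 0.00127 on the neuronal scale. With a library left out Syn1 ranged from -0.0375 to 0.0201, Syp from -0.0265 to 0.0186 and Sv2a from -0.0173 to 0.0119. The cause of these changes was not tested. Females alone leave fewer samples, and no filter adds genes to the adjustment. Members had at least 1110 counts in every library, so counting error was small beside the spread between mice.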
